A study of Mus musculus with 6 samples.

Results

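The 40 genes described here are the nuclear receptors of the mouse other than the PPARs and RXRs, chosen by gene symbol. They were followed among 22848 genes tested in liver. All 40 had a probe on the array, and 33 were well above background on enough arrays to be tested. Nuclear receptors are transcription factors that bind DNA near their target genes and, in most cases, switch those genes on or off when a small lipid-soluble ligand such as a thyroid hormone, retinoid, bile acid, oxysterol or steroid occupies them. Many pair with an RXR and recruit corepressors without ligand and coactivators with it. In the liver they set drug clearance, bile acid and cholesterol traffic, gluconeogenesis and the daily rhythm of metabolism.

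Total liver RNA of Fra-1hep mice was set against a wild-type pool on 6 Agilent arrays in 2 colours. Fra-1hep mice overexpress Fra-1, a subunit of the AP-1 transcription factor encoded by Fosl1, in hepatocytes only. They were on the C57BL/6J background, untreated and 26 to 28 weeks old. On 5 arrays a single Fra-1hep mouse was labelled in Cy5 and the pool of 5 chow-fed wild-type C57BL/6J mice of the same age in Cy3, and the sixth was a dye swap that carried pooled Fra-1hep RNA in Cy3 against the same wild-type pool. Neither the promoter that drives Fra-1 nor the sex of the mice is stated in the labels. Mice 2 and 3 differed by no more than replicate spots do (a typical difference of 0.108 against 0.115 log2 units of spot noise over 9139 genes) and counted as 1 sample, so n = 4 Fra-1hep samples. The wild-type pool is 1 sample hybridised repeatedly, so p-values hold the spread among Fra-1hep mice and not that among wild-type mice.

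The probe for Fosl1 was not well above background on any of the 6 arrays in either genotype, with a log2 ratio of -0.07, and the labels do not say whether the transgenic transcript holds its sequence. The probe therefore does not check the labels. The share of 55681 probes above background was 48.5 to 58.9% for Fra-1hep RNA and 45.0 to 50.7% for wild-type RNA, and larger in Cy5 on each of the 6 arrays. Hepatocyte markers were bright throughout, with a summed normalised intensity of 859025 to 891515 in Fra-1hep mice and 673589 to 785428 in the wild-type pool. On the dye-swapped array that order turned round, with 702651 in the Fra-1hep pool and 920760 in the wild-type pool, so the order of the sums followed the dye. In the fit, which has a dye term, 2 of the 12 hepatocyte markers rose and 3 fell, with Pck1 at 1.18 and Glul, glutamine synthetase, at -0.85. Markers of other cells moved with genotype, and 10 of 11 neutrophil markers were higher in Fra-1hep livers. Lower were 10 of 11 macrophage, 9 of 12 endothelial and 7 of 11 T and NK cell markers, and 1 endothelial marker was higher. Of the tested markers of other cells, 2 of 13 for stellate cells rose and 1 fell, 2 of 8 for cholangiocytes rose, and 2 of 4 for B cells and 1 of 3 for red blood cells fell. Over all genes tested, 12.5% changed in the same fit, with 5.97% higher and 6.51% lower. In whole liver RNA, fewer cells of a type and less RNA per cell cannot be told apart.

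Of the 33 tested receptors, 7 changed at an adjusted p under 0.05 (limma, Benjamini-Hochberg over all genes tested), 3 higher and 4 lower in Fra-1hep livers. That share stands beside 12.5% of all genes tested, with 5.97% higher and 6.51% lower. Among genes with a symbol, 15.9% changed. Nr4a1, Esrrg, Nr1i3 and Rarg were lower, and Esrra, Thra and Nr6a1 were higher. All 7 had the same direction on 6 of 6 arrays. So did Thrb, Rara, Nr1d1, Nr1h3, Nr1i2, Nr2c1, Nr2f1 and Nr4a2, which did not pass. The share of all genes with 1 direction throughout was not counted. Fitted ratios of at least 1.5-fold were given by Nr4a1, Nr1i3 and Esrrg among the 7, and 3.54% of all genes tested both passed and reached that size. For Esrrg the Fra-1hep signal was above background on 1 of 6 arrays, so its size is not an exact fold. It entered the test through its wild-type signal alone. The other 26 receptors did not pass. An unadjusted p under 0.05 in limma was given by 14 of the 33, the 7 that passed among them. The share of all genes tested at that unadjusted p was not counted, here or for the lists below. The median log2 ratio of the tested receptors was -0.06, against 0.01 for all genes tested. With the authors' processed log ratios in place of the corrected and loess-normalised signals, Rarg and Esrrg were the 2 receptors that passed.

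Promoter sequences of the receptors were searched for motifs, and those of the 4 receptors that fell are printed. RefSeq promoters of GRCm38.p6, each 250 bases before to 50 bases after a listed transcript start, were searched on both strands for TGANTCA, the motif that AP-1 dimers bind, and for AGGTCA, the element that many nuclear receptors bind. The table held 52 promoters of 36 receptors. TGANTCA was in 3 of those 52 and in 7.81% of all 32851 promoters. The 3 belong to Nr1i3, to Esrrg and to Rorb. AGGTCA was in 8 of the 52, among them those of Rarg and of Nr6a1, which was higher, and in 16.3% of all promoters. No receptor promoter held 2 copies of AGGTCA in direct repeat with a spacing of 1 to 5 bases. The promoters of the 4 receptors that fell follow in lower case, 5′ to 3′ on the strand of the gene, with any match to either motif in capitals. A match describes these letters only, and no binding was measured. In Nr1i3 (chr1:171213720-171214019, plus strand) TGANTCA begins at base -109 from the start. In Esrrg (chr1:187608756-187609055, plus strand, 1 of 4 listed starts) it begins at base -42. In Rarg (chr15:102257473-102257772, minus strand, 1 of 2 listed starts) the capitals are AGGTCA read on the opposite strand, at base -225. In Nr4a1 (chr15:101266596-101266895, plus strand) neither motif was found in this window.
Nr1i3: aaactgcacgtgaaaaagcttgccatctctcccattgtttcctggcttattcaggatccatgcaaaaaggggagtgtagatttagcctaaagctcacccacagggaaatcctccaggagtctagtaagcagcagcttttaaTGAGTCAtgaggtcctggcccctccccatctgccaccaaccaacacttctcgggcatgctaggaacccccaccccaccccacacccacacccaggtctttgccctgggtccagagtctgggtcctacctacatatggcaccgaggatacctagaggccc
Esrrg: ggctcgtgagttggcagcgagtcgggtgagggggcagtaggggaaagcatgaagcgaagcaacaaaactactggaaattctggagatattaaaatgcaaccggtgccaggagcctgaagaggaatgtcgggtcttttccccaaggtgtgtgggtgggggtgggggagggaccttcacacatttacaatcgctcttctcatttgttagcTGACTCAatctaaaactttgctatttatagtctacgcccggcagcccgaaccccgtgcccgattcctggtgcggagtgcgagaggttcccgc
Rarg: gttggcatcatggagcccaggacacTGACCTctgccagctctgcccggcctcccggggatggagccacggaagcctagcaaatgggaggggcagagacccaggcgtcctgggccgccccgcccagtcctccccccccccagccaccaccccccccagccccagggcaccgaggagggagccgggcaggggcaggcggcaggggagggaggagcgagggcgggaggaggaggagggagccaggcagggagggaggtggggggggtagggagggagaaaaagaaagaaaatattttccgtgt
Nr4a1: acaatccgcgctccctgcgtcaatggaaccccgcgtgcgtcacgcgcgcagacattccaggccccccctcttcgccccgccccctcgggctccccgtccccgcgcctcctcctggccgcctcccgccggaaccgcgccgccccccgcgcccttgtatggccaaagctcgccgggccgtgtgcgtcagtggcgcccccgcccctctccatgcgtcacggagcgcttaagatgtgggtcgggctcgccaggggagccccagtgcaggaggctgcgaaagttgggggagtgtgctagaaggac

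Nr1i3 encodes CAR, the receptor that switches on drug-metabolising enzymes when drugs or bile pigments accumulate. Its normalised intensity was 2765 to 4897 in the 5 Fra-1hep mice, against 6607 to 7838 for the wild-type pool on the same arrays. The 2 ranges did not overlap, but neither did those of Nr1d1, Nr1h2, Nr1h3, Nr1h4, Nr1i2 and Nr4a2, which did not pass. The same held for Nr0b1, which was above background on 0 arrays. The wild-type range comes from repeat hybridisations of the same pool in the other dye. The share of all genes without overlap was not counted. The log2 ratio was -0.66 in mouse 1, -1.36 in mouse 2, -1.28 in mouse 3, -0.76 in mouse 4 and -0.64 in mouse 5, and -0.46 on the dye-swapped array. Mice 2 and 3, counted as 1 sample, were the lowest. The fitted ratio was -0.65 ± 0.12 (SE, n = 4, adjusted p = 0.015 in limma), or 1.57-fold lower. A second probe of the gene gave -0.58.

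Nr1i2 encodes PXR, the broad sensor of drugs and steroids that shares many target genes with CAR. Its intensity was 1535 to 2461 in Fra-1hep mice and 2475 to 3056 in the wild-type pool on the same arrays. The mice gave log2 ratios of -0.24, -0.43, -0.72, -0.84 and -0.45 (mice 1 to 5) and the dye-swapped array -0.23. All 6 arrays lay below 0, but the fitted -0.38 ± 0.10 (SE, n = 4) had an adjusted p of 0.053 in limma and did not pass. Without mouse 1 it was -0.42 with an adjusted p of 0.028. With mice 2 and 3 kept as separate samples it was -0.38 with an adjusted p of 0.037, so averaging those mice ended the call.

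Of 21 listed CAR and PXR targets, 19 were tested, 3 fell and 2 rose, beside 12.5% of all genes tested that changed. The median log2 ratio of the list was -0.17. Cyp2b10, the cytochrome P450 most used as a marker of CAR activity, had log2 ratios of -0.52, -2.04, -2.20, -1.88 and -0.69 in mice 1 to 5 and -1.06 on the dye-swapped array. Its fitted ratio was -1.18 ± 0.29 (adjusted p = 0.037 in limma), and without mouse 4 it was -1.08 with an adjusted p of 0.055. Cyp3a11, the main PXR-regulated P450 of mouse liver, fell by 0.48 on the log2 scale (SE 0.09). The conjugate exporter Abcc3 fell by 0.47 (SE 0.08). Cyp2c55, a P450 inducible by both receptors, went the other way at 1.14 ± 0.13, as did the drug exporter Abcb1a at 0.40 ± 0.07. The other 14 did not pass, among them Cyp2c29 at -0.28 and Cyp2c37 at -0.35. Without mouse 1, 5 targets fell in place of 3, and without mouse 4, 2 fell. The authors' processed ratios gave 2 higher and 0 lower, and a fit without a dye constant 2 higher and 8 lower.

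**Figure D1:**
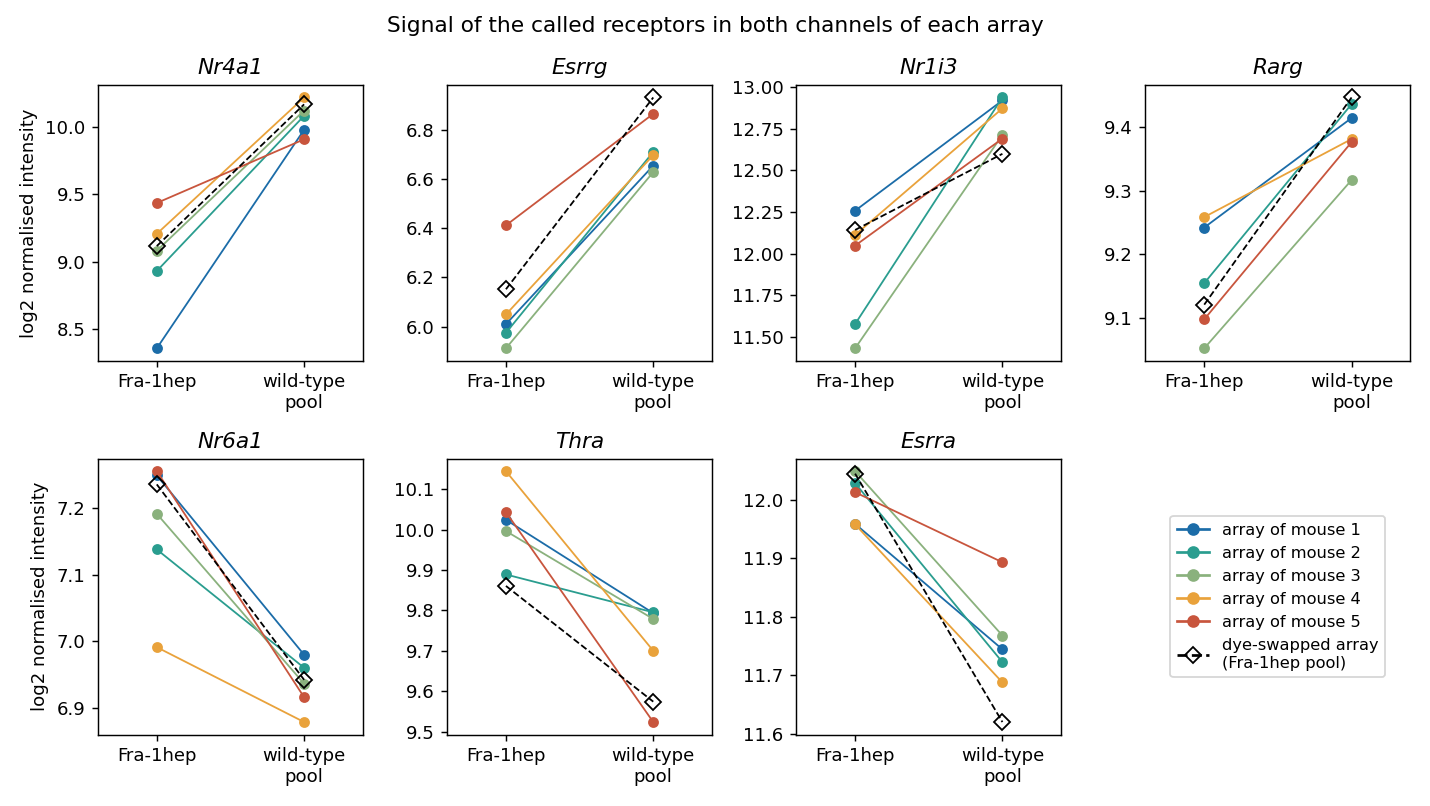
Log2 normalised intensity of the 7 changed receptors in the Fra-1hep channel (left) and the wild-type channel (right) of each array, one panel per gene with its own vertical range, so levels are not to be compared between panels. Each line joins the 2 channels of 1 array, and the dashed line is the dye-swapped array of pools. Every line runs up to wild type for Nr4a1, Esrrg, Nr1i3 and Rarg, and down to it for Nr6a1, Thra and Esrra.

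Nr1h4 encodes FXR, the bile acid receptor. Its intensity was 7632 to 8043 in Fra-1hep mice and 8355 to 9518 in the wild-type pool on the same arrays. On the dye-swapped array the order turned round, with 8372 in the Fra-1hep pool and 7899 in the wild-type pool. The fitted log2 ratio was -0.06, with a 95% interval of -0.20 to 0.07. Nr0b2 encodes SHP, the receptor without a DNA-binding domain that FXR induces and that represses bile acid synthesis. Its log2 ratios were 0.19, -0.46, -0.19, -0.85 and 0.04 in mice 1 to 5 and -0.50 on the dye-swapped array. Mice 1 and 5 were above 0 and the rest below, and the fitted -0.37 ± 0.17 did not pass (adjusted p = 0.221 in limma). Nr5a2 encodes LRH-1, which activates bile acid synthesis genes and is restrained by SHP. It gave -0.23 in mouse 1, 0.23 to 0.51 in the other mice and 0.52 on the dye-swapped array. The fitted 0.37 ± 0.13 had an adjusted p of 0.104, and without mouse 1 it was 0.45 with an adjusted p of 0.014. A second, dimmer probe of Nr5a2 gave -0.09.

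Of 16 listed bile acid genes, 15 were tested, 4 fell and none rose, beside 6.51% lower and 5.97% higher over all genes tested. The median log2 ratio of the list was -0.05. Cyp8b1, the sterol 12-alpha-hydroxylase that sets the share of cholic acid, fell by 0.85 on the log2 scale (SE 0.17, adjusted p = 0.019 in limma). Cyp7b1, the oxysterol hydroxylase of the alternative pathway, was at -0.76 ± 0.18, and without mouse 5 its adjusted p was 0.059. Abcb11, the bile salt export pump and a direct FXR target, was at -0.73 ± 0.10. Osgin1, also induced by FXR, was at -0.46 ± 0.06. Cyp7a1, the rate-limiting enzyme of bile acid synthesis, was at 0.20 ± 0.11 and did not pass (adjusted p = 0.297). At an unadjusted p under 0.05, 6 of the 15 fell and 0 rose. The authors' processed ratios gave 0 higher and 2 lower, and the mouse arrays alone 2 higher and 6 lower.

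The oxysterol receptors LXR-alpha and LXR-beta, encoded by Nr1h3 and Nr1h2, sense cholesterol and drive its export and fat synthesis. Nr1h3 was below 0 on all 6 arrays, with log2 ratios of -0.24, -0.48, -0.36, -0.30 and -0.12 in mice 1 to 5 and -0.21 on the dye-swapped array. Its fitted ratio of -0.24 ± 0.07 did not pass (adjusted p = 0.066 in limma) and did pass without mouse 5 (-0.27, adjusted p = 0.049) or with mice 2 and 3 as separate samples (-0.26, adjusted p = 0.043). A second probe of Nr1h3 gave -0.29. Nr1h2 was at -0.43 to -0.07 in the 5 mice and 0.23 on the dye-swapped array, so its sign turned with the dye, and the fitted ratio was -0.01 (95% interval -0.19 to 0.18).

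All 14 listed LXR targets were tested, 5 fell and none rose, beside 6.51% lower and 5.97% higher over all genes tested. The median log2 ratio of the list was -0.36. The phospholipid transfer protein Pltp fell by 1.01 (SE 0.13). The sterol transporters Abcg5, Abcg1 and Abcg8 fell by 0.51, 0.43 and 0.41, and for Abcg8 the adjusted p without mouse 5 was 0.063. Smpdl3a, a macrophage LXR target, fell by 0.37. The median over the list was -0.33, -0.59, -0.55 and -0.41 in mice 1 to 4 and 0.08 in mouse 5, which stood apart. The fat synthesis genes Scd1 and Fasn, at 1.27 and 0.60 in mouse 5, lay between -1.61 and -0.71 in the other mice and did not pass (adjusted p = 0.340 and 0.216 in limma). Without mouse 5, 7 targets fell and 1 rose. Median centring gave 2 higher and 3 lower, and the authors' processed ratios 0 higher and 2 lower. At an unadjusted p under 0.05, 7 fell and 2 rose. Macrophages also express several genes of this list, and macrophage marker sums were 41047 to 69187 in Fra-1hep mice against 82751 to 94735 in the wild-type pool. The part of macrophage RNA in these values was not tested.

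Hnf4a encodes the receptor that maintains hepatocyte identity. Its intensity was 30909 to 41531 in Fra-1hep mice and 30965 to 34058 in the wild-type pool, and the 2 ranges overlapped. Mice 2 and 3 gave log2 ratios of 0.42 and 0.32, the other mice -0.05 to 0.06, and the dye-swapped array 0.22. The fitted ratio was 0.15, with a 95% interval of -0.05 to 0.36. Of 15 HNF4A targets, all tested, 1 rose and 2 fell, with a median of -0.03, beside 12.5% of all genes tested that changed. These counts had no stable direction across settings, with 3 higher and 0 lower under median centring, 7 higher and 3 lower from the mouse arrays alone, and 0 in either direction with the authors' processed ratios. G6pc, the last enzyme of glucose output, was at 1.16 ± 0.26. Apoa1, the protein of high-density lipoprotein, was at -0.34 ± 0.08, and Cyp2d22 at -0.35 ± 0.09 with an adjusted p of 0.060 when mouse 5 was left out.

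None of the orphan receptors TR2 (Nr2c1), TR4 (Nr2c2), COUP-TFI (Nr2f1), COUP-TFII (Nr2f2) and EAR2 (Nr2f6), which often compete with other receptors for DNA, passed the test, and 2 of the 5 had an unadjusted p under 0.05 in limma. Their fitted log2 ratios ran from -0.18 for Nr2c1 to 0.05 for Nr2f6. Nr2c1 was below 0 on 6 of 6 arrays (adjusted p = 0.158 in limma), as was Nr2f1. Nr2f2, which veins and stromal cells also express, was between -0.17 and 0.17 in the mice and at -0.35 on the dye-swapped array. Its fitted ratio was -0.16 ± 0.06 (unadjusted p = 0.037, adjusted p = 0.157 in limma), while the mean of its mouse samples was 0.03. The sign of that fit thus rests on the dye-swapped array, whose own error is not estimated.

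Of the thyroid hormone receptors, Thra passed the test and Thrb did not. Thra, the form that dominates in heart and brain, had an intensity of 948 to 1132 in Fra-1hep mice and 736 to 889 in the wild-type pool. Its log2 ratios were 0.23, 0.09, 0.22, 0.44 and 0.52 in mice 1 to 5 and 0.29 on the dye-swapped array. The fitted 0.31 ± 0.08 (1.24-fold higher) had an adjusted p of 0.046 in limma. The adjusted p was 0.055 without mouse 1, 0.067 without mouse 3, 0.084 without mouse 4 and 0.063 without mouse 5. A second, dimmer probe of Thra gave 0.01. Thra and Nr1d1 overlap on chromosome 11 in the RefSeq list, and how the probes divide their transcripts was not tested. Thrb, the main form of liver, was between -0.23 and -0.02 in the mice and had a fitted ratio of -0.08 (95% interval -0.23 to 0.06). The difference between Thra and Thrb was not itself tested.

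Of 9 thyroid hormone response genes, all tested, 2 fell and none rose, beside 12.5% of all genes tested that changed. The median log2 ratio of the list was -0.00. At an unadjusted p under 0.05, 3 fell and 1 rose. The authors' processed ratios gave 1 higher and 0 lower. Dio1, the deiodinase that makes active hormone in liver, had log2 ratios of -0.85, -2.95, -3.12, -1.59 and -1.87 in mice 1 to 5 and -1.50 on the dye-swapped array. Its fitted ratio was -1.67 ± 0.32 (adjusted p = 0.015 in limma). The mitochondrial glycerol phosphate dehydrogenase Gpd2 was at -0.38 ± 0.08, and its adjusted p was 0.051 without mouse 4. With the authors' processed ratios Dio1 and Gpd2 kept their direction, at -1.73 and -0.40, and did not pass (adjusted p = 0.082 and 0.145 in limma). Thrsp, a classical liver target, was at 0.02 and did not pass.

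Among retinoic acid receptors, Rarg fell. Its intensity was 531 to 612 in Fra-1hep mice and 638 to 693 in the wild-type pool. The log2 ratios of -0.17, -0.28, -0.26, -0.12 and -0.28 in mice 1 to 5 and -0.33 on the dye-swapped array were all below 0. The fitted -0.27 ± 0.06 (1.20-fold lower) had an adjusted p of 0.028 in limma. With median centring in place of loess it was -0.15 with an adjusted p of 0.196. Rara, the receptor of widest expression, was above 0 on all 6 arrays (0.07 to 0.27 in the mice) and did not pass at 0.19 ± 0.06 (adjusted p = 0.091). Rarb was at -0.04. Of 14 genes of retinoid response and handling, 11 were tested, 2 fell and 1 rose, beside 12.5% of all genes tested that changed. The median of the list was -0.05. The authors' processed ratios gave 1 lower and 1 higher, and the mouse arrays alone 3 lower and 3 higher. Cyp26a1, the retinoic acid-degrading P450 that retinoic acid itself induces, fell by 0.74 (SE 0.12). Rdh16, a retinol dehydrogenase of liver, fell by 1.32 (SE 0.27), with -0.18 in mouse 5 and -1.94 to -1.41 in the other mice. Rdh10, the dehydrogenase of the first step of retinoic acid synthesis in embryos, rose by 0.52 (SE 0.08). The partner receptors Rxra, Rxrb and Rxrg were at -0.19, -0.01 and -0.12, and none passed (adjusted p = 0.114, 0.953 and 0.302).

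The REV-ERB and ROR receptors repress and activate clock genes at shared sites. None of the 4 tested passed in limma, and 0 had an unadjusted p under 0.05. Nr1d1, encoding REV-ERB-alpha, was at -1.03 in mouse 1, -0.34 to -0.04 in the other mice and -0.07 on the dye-swapped array, so 1 mouse made most of its spread (SD 0.45 over 4 samples). The fitted ratio was -0.22 ± 0.17, and -0.11 without mouse 1. Nr1d2, encoding REV-ERB-beta, was at 0.05 to 0.33 in the mice and -0.19 on the dye-swapped array, with a fitted 0.00 (95% interval -0.15 to 0.15). Rora was at -0.05. Rorb, a receptor of brain and retina, was detected above background in Fra-1hep RNA on 3 of 6 arrays and in wild-type RNA on 0. Of 16 clock genes, 14 were tested, 1 rose and none fell, beside 12.5% of all genes tested that changed. The median of the list was 0.01, and at an unadjusted p under 0.05 there were 3 in each direction. The gene that rose was Cry2, a clock repressor, at 0.26 ± 0.07 (adjusted p = 0.050), which did not pass without mouse 1, mouse 3 or mouse 5 (0.081, 0.071 and 0.077). The labels do not state the time of day at which livers were taken.

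The estrogen-related receptors are orphan receptors that drive mitochondrial genes together with PGC-1 coactivators. Of the 3, Esrra was higher, Esrrg was lower and Esrrb did not pass. Esrrg had an intensity of 60.2 to 85.1 in Fra-1hep mice and 98.9 to 117 in the wild-type pool. Fra-1hep RNA gave a signal above background on 1 of 6 arrays and wild-type RNA on 6 of 6. The log2 ratios were -0.64, -0.74, -0.72, -0.65 and -0.45 in mice 1 to 5 and -0.78 on the dye-swapped array. The fitted -0.70 ± 0.07 (adjusted p = 0.001 in limma) corresponds to 1.62-fold lower, and a second probe, above background in Fra-1hep RNA on 0 arrays, gave -0.55. The gene entered the test through its wild-type signal alone, the group where it is high, so the test rests on a Fra-1hep signal at background on most arrays and the fold is not an exact one. Its size moved with the background correction, to -3.18 from the authors' processed signals and -1.20 with an offset of 16 in place of 50.

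Esrra, the form of widest expression, was higher. Its intensity was 3978 to 4237 in Fra-1hep mice and 3299 to 3804 in the wild-type pool. The log2 ratios were 0.21, 0.31, 0.28, 0.27 and 0.12 in mice 1 to 5 and 0.42 on the dye-swapped array. The fitted 0.32 ± 0.06 was 1.25-fold higher (adjusted p = 0.014 in limma). Of 11 listed targets and partners of these receptors, 10 were tested and none passed in limma, beside 12.5% of all genes tested that changed. The median of the list was -0.06, and 1 gene had an unadjusted p under 0.05 in limma. The mouse arrays alone gave 3 higher and 2 lower. Ppargc1a, encoding PGC-1-alpha, was at 0.10 and the respiratory chain carrier Cycs at -0.10. Esrrb ran from -0.32 in mouse 1 to 0.42 in mouse 5 and had no common direction. The estrogen receptors Esr1 and Esr2, encoding ER-alpha and ER-beta, had fitted ratios of -0.08 and 0.04 and did not pass.

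The glucocorticoid receptor Nr3c1, which raises gluconeogenesis and restrains inflammation, had an intensity of 3224 to 3516 in Fra-1hep mice and 3228 to 3723 in the wild-type pool, and the ranges overlapped. Its log2 ratios were -0.12 to 0.06 in the mice and 0.36 on the dye-swapped array, and the fitted 0.16 ± 0.06 did not pass (adjusted p = 0.146 in limma). The mineralocorticoid receptor Nr3c2 was at 0.07. Of 15 glucocorticoid response genes, all tested, 6 rose and 1 fell, beside 5.97% higher and 6.51% lower over all genes tested. The median of the list was 0.31. The authors' processed ratios gave 3 higher and 0 lower. The metallothioneins Mt2 and Mt1, metal-binding proteins, were at 2.71 ± 0.28 and 2.27 ± 0.38. Lcn13, named Obp2a in the RefSeq list, was at 1.25 ± 0.22. Pck1, the committed enzyme of gluconeogenesis, was at 1.18 ± 0.13, and the MAP kinase phosphatase Dusp1 at 0.72 ± 0.10. Fkbp5, a chaperone of the receptor and one of its classical targets, was at 0.31 ± 0.06. Hsd11b1, the enzyme that regenerates active glucocorticoid, was at -0.78 ± 0.13. Tsc22d3 and Per1, also classical targets, were at 0.33 and 0.22 and did not pass (adjusted p = 0.288 and 0.191).

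**Figure D2:**
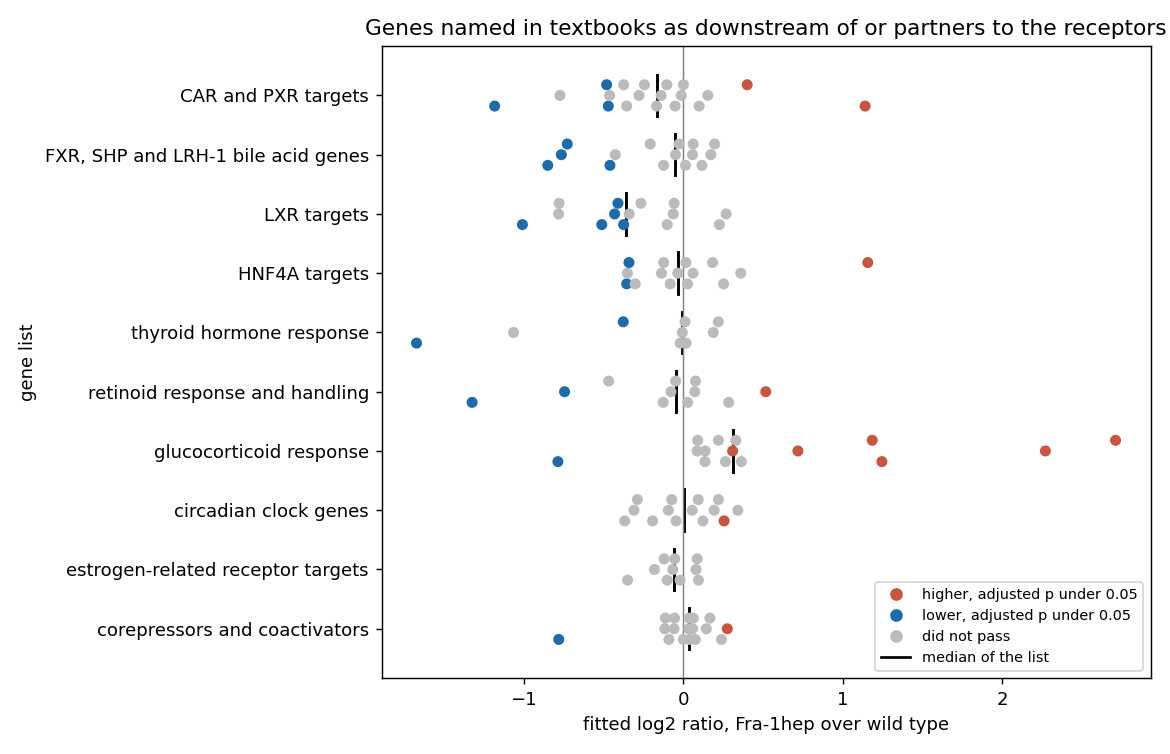
Fitted log2 ratio of Fra-1hep over wild type for each tested gene of the 10 lists of target and partner genes, one row per list, with points shifted vertically only to separate them. Red points passed as higher, blue points as lower, grey points did not pass, and the black bar is the median of the list. The LXR row has its median at -0.36 and the glucocorticoid row at 0.31, while the other 8 medians lie between -0.17 and 0.04.

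Nr4a1, encoding NUR77, an immediate early receptor that growth factors, stress and fasting signals induce rapidly, had the largest fitted change of the 33 tested receptors. With an offset of 16, or with the authors' processed ratios, that place went to Esrrg, which is at background in most Fra-1hep samples. The intensity of Nr4a1 was 328 to 692 in Fra-1hep mice and 959 to 1189 in the wild-type pool. The log2 ratios were -1.62, -1.15, -1.04, -1.01 and -0.47 in mice 1 to 5 and -1.05 on the dye-swapped array. Mouse 1 was the lowest and mouse 5 the highest. The fitted -1.05 ± 0.17 (adjusted p = 0.008 in limma) was 2.07-fold lower. Macrophages and endothelial cells also express Nr4a1. The median of the macrophage markers was -0.96, -0.87, -0.93, -0.43 and -0.51 in mice 1 to 5, and that of the endothelial markers -0.39, -0.68, -0.71, -0.65 and -0.25. Itgax, a marker of myeloid cells, was at -0.94 ± 0.12 and Clec4g, of sinusoidal endothelium, at -0.95 ± 0.15. Of the 12 endothelial markers, 9 were lower and 1 was higher. Endothelial marker sums were 14278 to 21368 in Fra-1hep mice and 26764 to 27591 in the wild-type pool. Their part in the fall of Nr4a1 was not tested. Nr4a2, encoding NURR1, was dim, above background in Fra-1hep RNA on 3 of 6 arrays and in wild-type RNA on 6 of 6, and its fitted -0.12 did not pass (adjusted p = 0.407).

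Nr6a1, encoding GCNF, a repressor of pluripotency genes in embryos and germ cells, was dim and slightly higher. Its intensity was 127 to 153 in Fra-1hep mice and 118 to 126 in the wild-type pool. The log2 ratios were 0.27, 0.18, 0.26, 0.11 and 0.34 in mice 1 to 5 and 0.29 on the dye-swapped array. The fitted 0.26 ± 0.06 (1.20-fold higher, adjusted p = 0.036 in limma) had an adjusted p of 0.060 without mouse 1 and 0.058 without mouse 5. With the authors' processed ratios it was 0.58 (adjusted p = 0.053). Nr5a1, encoding SF-1, a receptor of steroid-making tissues, was at -0.16 and did not pass.

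Receptors act through shared cofactors. Of 17 corepressors and coactivators, all tested, 1 rose and 1 fell, with a median of 0.04, beside 12.5% of all genes tested that changed. The corepressor subunit Tbl1xr1 was at 0.28 ± 0.06, and its adjusted p was 0.057 without mouse 2 and 0.059 without mouse 4. Med1, the Mediator subunit that contacts liganded receptors, fell by 0.78 (SE 0.08) on its brightest probe, while the mean of its probes fell by 0.14 and did not pass. Ncor1, a corepressor of unliganded receptors, was at -0.05 and did not pass (adjusted p = 0.618 in limma).

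The other 7 receptors were not tested. Nr2e1, Nr2e3, Pgr, Nr4a3 and Nr0b1, which serve the nervous system, retina, reproductive tract, or adrenal and gonad among other tissues, were not well above background on any array in either genotype. Vdr, the vitamin D receptor, was detected in Fra-1hep RNA on 2 of 6 arrays and Hnf4g on 1, and both were at 0 arrays in wild-type RNA. No fold is given for these 7.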

How the data were processed

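Spot signals were read by the authors with Agilent Feature Extraction, version 10.7 in the submitters' processing notes and 10.7.3.1 in the headers. Median spot and background signals are deposited as intensity without normalisation, per the file headers, beside the log10 ratio of processed signals of Cy5 over Cy3. The authors' deposited table holds log2 ratios, with the dye-swapped array turned and columns not centred (medians -0.18 to 0.06).

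From the median signals, background was corrected by normexp (offset 50) and ratios normalised by loess in limma 3.58.1 under R 4.3.3, with outlier spots (190 to 301 per array) and control spots at weight 0 and replicate spots averaged. No array had a saturated spot (0). Dim probes have their ratios drawn towards 0 by the offset. Channel intensities were scaled between arrays (Aquantile) and serve to show levels of a single probe, never to compare genes. Probes were named by accession from the RefSeq gene list of GRCm38.p6, used for names only, since neither labels nor headers state the build of the array design. The brightest probe stands for a gene. A gene was tested if well above background on at least 3 of 5 mouse arrays (Fra-1hep) or 3 of 6 arrays (wild type). lmFit and eBayes fitted a genotype coefficient (-1 on the dye-swapped array) and a dye constant, 2-sided, with 3 residual and 4.67 prior degrees of freedom. In simulated data the method recovered 58.2% of true changes of 0.5 log2 units, 92.5% of those of 1 and 98.5% of those of 2. A receptor that did not pass may therefore still have changed. The dye-swapped array has as much weight as all mouse arrays together, and its own error is not estimated. No member lacked a value on any array, and the number of arrays limits the precision. The 6 arrays lay on 3 slides, each array holding both genotypes.

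The receptors, the target and marker lists and the rule for named genes came from textbook knowledge and were chosen with earlier results of these data known, as was the rule that mice 2 and 3 are averaged if they differ by less than 1.5 times the replicate-spot noise. Named were all receptors, the listed genes that passed with the largest ratios (up to 4 in each direction per list) with textbook targets of a described receptor, and marker genes. Alternatives changed the signal, offset, normalisation, filter, probe rule, dye term, slide and mice. Series text naming 6 single mice differs from the sample labels (5 mice and pools), which were followed.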

Additional observations from a re-analysis of the deposited data

Results flagged for a closer look

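For 40 receptors, the 4 Fra-1hep samples were searched for a single sample far from the rest (its gap to the nearest over the whole range, above Dixon's 95% value), which chance gives in about 1 of 20. There were 2. For Nr1h4, mouse 5 (-0.13) lay apart from the other samples (-0.24 to -0.23), with a gap ratio of 0.9152. For Esr1, mouse 4 (-0.32) lay apart from the others (0.13 to 0.24 per mouse), with a gap ratio of 0.8889. Neither receptor passed the test.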

How the results depend on the processing

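Each ratio pairs the Fra-1hep and wild-type channels of the same array, so this pairing is part of every fit. The wild type is 1 pool, so no single wild-type mouse could be paired with a Fra-1hep mouse. Genes changed numbered 2851, and 1546 with the authors' processed ratio, 4787 without a dye constant, 6099 from mouse arrays only and 2319 to 2719 with a mouse left out. Median centring gave 2473 higher and 823 lower, against 1364 and 1487. Receptors changed numbered 7, and 2 with the processed ratio (Rarg and Esrrg), 13 from mouse arrays only, 9 with median centring, 9 with 5 separate mice, 10 without a dye constant and 6 to 7 with a mouse left out. Listed target and partner genes changed numbered 32, and 14, 56 and 69 with the processed ratio, without a dye constant and from mouse arrays only, and 31 to 38 with a mouse left out. The cause was not tested.

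With the processed ratio the adjusted p was 0.110 for Thra, 0.068 for Nr1i3, 0.051 for Esrra, 0.057 for Nr4a1 and 0.053 for Nr6a1. Esrrg passed in all 15 alternatives that kept it, but its Fra-1hep signal was above background on 1 of 6 arrays. It entered these fits through its wild-type signal, and the filter that asks for signal in both channels dropped it. Of 525 receptor values under alternatives, 467 kept direction and side of the threshold, 14 no longer passed, 20 passed in addition and 24 turned sign, all of them of receptors that had not passed. The turned values were -0.0015 (Nr1d2) and 0.0076 (Nr2c2) with the processed ratio; 0.0223 (Thrb), 0.0444 (Rarb), 0.0754 (Rora), 0.1443 (Nr1h2), 0.095 (Nr1h4), 0.0897 (Nr2c2) and 0.0023 (Nr2f1) with median centring. Others were -0.0093 and -0.0094 (Nr1d2) with 5 separate mice, without and with slide as a block. Without a dye constant they were 0.0004 (Rora), -0.0039 (Nr2f6) and -0.0198 (Nr3c2). From mouse arrays only they were 0.035 (Rora), 0.0286 (Nr2f2), -0.0395 (Nr2f6), 0.0383 (Esr1), -0.0428 (Nr3c1) and -0.0794 (Nr3c2). With a mouse left out, Nr1h2 ranged from -0.0361 to 0.0231 and Nr1d2 from -0.0217 to 0.009.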
